A study of Mus musculus with 11 samples.

Results

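Baseline gene expression was measured in fibroblasts of the mouse thymus taken from animals that had received no drug. The set comprised the 4 untreated libraries of 11 in the series, and no library from a treated animal entered any value given here. The untreated mice were young WT males, age-matched to the treated ones. The other libraries, 3 from 18 h and 4 from 4 d after an intraperitoneal dose of dexamethasone at 200 ug per 10 g of body weight, were not analysed here. Thymi were digested with Liberase TH and DNase, and the sorted cells are labelled CD45-EpCAM+CD34+CD31-PDGFRalpha+, a gate in which EpCAM stands as positive. The sample titles number the libraries as replicates 1 to 4, used here, while the deposited count columns number the same libraries 1, 3, 4 and 5 in that order. No label says whether each came from its own animal, so the spread between them may be technical. All 4 shared genotype, sex, organ, digestion and gate. Since all were digested and sorted, the part of these steps in any level given here cannot be told apart and was not tested.

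Fibroblasts of the thymus build the collagenous capsule, the septa and the sheaths of its vessels, and they send growth factors to the thymic epithelium on which T cell development depends. PDGFRα, a receptor for platelet-derived growth factors, marks fibroblasts in many organs, and CD34 and DPP4 mark those of the capsule and of vessel adventitia. Decorin, encoded by Dcn, is a small proteoglycan that binds collagen fibrils and is made by nearly all fibroblasts.

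MARS-seq captures the 3′ end of polyadenylated RNA. A level in CPM, the counts of a gene scaled to the total of the library, thus does not grow with transcript length by design. CPM were set side by side between genes. Differences between genes in capture, mapping and annotation of the 3′ end were not measured. A low CPM therefore need not be a low RNA level. The libraries held 1823732, 1687549, 2432295 and 2398275 counts in replicates 1 to 4. At these depths a count of 0 allows a level of up to 1.23 to 1.78 CPM, a limit that covers counting error only. Of the 12430 genes in the deposited table, 11528 had a count in all 4 libraries and 53 had none in any. A level of 10 CPM or more in all 4 was reached by 6339 genes, 100 CPM by 1205 and 1000 CPM by 119. The log2 CPM of the 4992 genes with a mean of at least 50 counts correlated across genes at r = 0.945 to 0.958 among replicates 2, 3 and 4, and at 0.888 to 0.920 between each of these and replicate 1. Genes are not independent replicates, and these values describe likeness only. Replicate 1 stood apart from the others, and the genes that set it apart are given with the spread among libraries.

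Cd34 and Pdgfra, positive in the labelled gate, were present in every library, as were the fibroblast markers Dcn and Dpp4. Dcn was the fifth most abundant gene of the table, at 5173, 10119, 11686 and 13628 CPM in replicates 1 to 4. Replicate 1 was the lowest library. Cd34, a sialomucin of progenitor and endothelial cells as well as fibroblasts, lay at 873, 1200.0, 1023 and 976 CPM and ranked 150. Pdgfra lay at 81.2, 111, 108 and 165 CPM and ranked 1338. Dpp4, a surface peptidase, was the lowest of the 4 markers, at 25.2, 23.7, 25.5 and 32.5 CPM, and ranked 4642. For Cd34 and Dpp4 the highest library was 1.37 and 1.37 times the lowest. The sort markers that should be absent were near the detection limit, with Ptprc (CD45) at 0.548, 5.93, 2.06 and 2.502 CPM and Pecam1 (CD31) at 2.74, 0, 2.47 and 4.17 CPM. Epcam, positive in the labelled gate, was at 10.97, 1.19, 0.822 and 0.417 CPM, so it was above 2 CPM in replicate 1 alone.

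Markers of other cells that a thymus digest could hold were low for blood and vessel cells and high for mesothelium, the cell layer that covers organs in the chest cavity. All 5 mesothelial markers exceeded 100 CPM in every library, a level reached there by 1205 of all 12430 genes. The summed level of the 5 was 4037, 3640.2, 5082 and 2997 CPM in replicates 1 to 4. Msln, which encodes mesothelin, reached 1261, 951, 1447 and 976 CPM. Upk3b, a uroplakin, reached 863, 793, 1300.0 and 465 CPM, and Krt19, a keratin, 967, 883, 1022 and 693 CPM. Wt1, a transcription factor known from mesothelium, lay at 248, 193, 217 and 123 CPM. Of the 5 mesothelial markers, 4 were highest in replicate 3 and 3 were lowest in replicate 4.

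The 8 endothelial markers summed to 106 ± 20.9 CPM (SD, n = 4), of which Kdr, a receptor for vascular endothelial growth factor, gave 88.8%. Cdh5, Cldn5 and Emcn, which define endothelium, lay at 0.548, 1.19, 0.411 and 1.25, at 0.548, 0.593, 0 and 0.834 and at 0, 1.78, 0.822 and 1.67 CPM, values that a few counts give. The 6 macrophage markers measured summed to 71.3, 169, 96.2 and 71.3 CPM and the 8 thymocyte markers to 8.77, 57.5, 14.8 and 27.5 CPM, both highest in replicate 2. The 6 thymic epithelial markers measured summed to 251, 285, 215 and 147 CPM, mostly from Krt8 and Cldn3, while Krt5, which defines medullary epithelium, was at 0.548, 0, 0.822 and 0.834 CPM. Pericyte and smooth muscle markers summed to 139.8, 213, 169.8 and 326 CPM, highest in replicate 4. In a bulk library, fewer cells of a type and less RNA per cell cannot be told apart, and the part of any of these cells in the values below was not tested.

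The most abundant transcripts fell into a few groups. Heat shock genes, matrix genes, insulin-like growth factor binding proteins and ribosomal proteins filled most of the first 25 ranks. The 100 most abundant genes took 33.2%, 36.4%, 34.6% and 34.4% of the counts in replicates 1 to 4. Among these 100 were 33 cytosolic ribosomal proteins, 3 collagens, 8 matrix glycoproteins, 2 proteoglycans, 7 matrix enzymes and inhibitors, 11 secreted factors, 1 receptor or surface protein and 3 transcription factors. Of the first 25 genes, 18 were in the first 25 of every library and 23 in the first 50. The order inside the 25 is loose, since the ranges over the 4 libraries overlapped for all 24 pairs of neighbours in rank.

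Hspb1, the small heat shock protein that protects actin and other proteins under stress, had the highest mean, at 13036, 18741, 13201 and 14459 CPM. Hspa1b and Hspa1a, a pair of inducible HSP70 chaperones, lay at 9416, 20636, 15454 and 8144 and at 9039.7, 17780.2, 12098 and 7304 CPM. For all of the 3 genes replicate 2 was the highest library, and for the HSP70 pair it stood 2.53 and 2.43 times above the lowest, replicate 4. By GENCODE M21 on GRCm38, Hspb1 lies at chr5:135887919-135889563 on the plus strand, Hspa1b at chr17:34956436-34959238 on the minus strand and Hspa1a at chr17:34969190-34972156 on the minus strand. The constitutive relative Hspa8 lay at 4052, 5061, 2029 and 3500.4 CPM and was lowest in replicate 3.

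The 16 heat shock genes measured summed to 45302, 77087, 50854 and 43906 CPM in replicates 1 to 4, a mean of 5.43% of all counts, and Hspb1, Hspa1b and Hspa1a gave 73.4% of that sum. Of the 14 heat shock genes with a mean of at least 50 counts, 12 (85.7%) were highest in replicate 2, against 14.9% of all 4992 genes at that depth. The co-chaperone gene Bag3 was at 918, 2724, 1228 and 1292 CPM, the HSP40 gene Dnajb1 at 1947, 3061, 1526 and 1748 CPM and Hspe1, the mitochondrial co-chaperonin, at 1280.3, 2036, 1064 and 1478 CPM. Replicate 2 was the highest of the 4 for each of them. Hsp90aa1 was the exception in shape, with 111, 692, 379 and 576 CPM and replicate 1 far below the rest. In the last 500 transcript bases of Hspb1, 54.5% of 50-base words also occur in the pseudogene Hsp25-ps1, and for Hspa8 81.8% occur in other genes, so their counts may include copies. The ends of Hspa1a and Hspa1b shared none.

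Heat shock genes are induced through elements of inverted nGAAn units in their promoters, and the promoters of the 3 highest genes are shown because of their place at the top of the ranking. The 250 bases before the transcription start come from RefSeq (GRCm38.p6). Capitals mark matches to GAANNTTC or TTCNNGAA, the shortest pair of inverted units, searched on both strands (each motif is its own reverse complement, and the 2 motifs were searched separately). This motif was chosen after the levels were known. The coordinates are chr5:135887669-135887918 on the plus strand for Hspb1, chr17:34959239-34959488 on the minus strand for Hspa1b and chr17:34972157-34972406 on the minus strand for Hspa1a.
Hspb1: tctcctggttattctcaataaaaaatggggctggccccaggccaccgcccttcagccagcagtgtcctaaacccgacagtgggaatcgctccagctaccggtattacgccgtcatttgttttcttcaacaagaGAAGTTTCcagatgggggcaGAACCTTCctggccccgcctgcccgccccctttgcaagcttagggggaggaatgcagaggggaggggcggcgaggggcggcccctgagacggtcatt
Hspa1b: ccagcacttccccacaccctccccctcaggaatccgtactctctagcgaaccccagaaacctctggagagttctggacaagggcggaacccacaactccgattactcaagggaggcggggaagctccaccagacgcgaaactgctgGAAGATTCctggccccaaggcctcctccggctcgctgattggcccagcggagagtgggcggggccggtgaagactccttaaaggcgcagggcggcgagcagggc
Hspa1a: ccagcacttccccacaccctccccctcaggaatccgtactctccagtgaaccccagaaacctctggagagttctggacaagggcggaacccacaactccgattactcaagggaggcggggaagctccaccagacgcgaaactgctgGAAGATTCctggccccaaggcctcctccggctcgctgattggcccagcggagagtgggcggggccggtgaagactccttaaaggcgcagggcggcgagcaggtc

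Hspb1 held 2 matches, starting at -117 and -97 from the transcription start, and Hspa1b and Hspa1a 1 match each, at -104. The Hspa1b and Hspa1a promoters were identical at 247 of 250 positions, and the 2 genes also had the same order of libraries. Of 12 heat shock genes with a promoter in the RefSeq table, 8 (66.7%) held a match in at least 1 of their promoters, against 12.3% of the 9862 genes of the count table with a promoter. Counted by promoter, 9 of 18 of the heat shock genes held a match, against 12.8% of all 32851, and the near-identical Hspa1a and Hspa1b promoters enter both counts separately. A match describes the letters only, and binding was not measured.

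Ribosomal protein genes took 11.6% of all counts, with sums of 115709, 101865, 115566 and 129266 CPM in replicates 1 to 4. Rplp1 and Rplp0, of the ribosomal stalk, lay at 7033 ± 526 and 3394 ± 445 CPM (SD, n = 4), and Rps12 at 4402 ± 763 CPM. Many ribosomal genes have processed pseudogenes, and 96.9% of the 50-base words of the Rps12 end occur in other genes, so single ribosomal levels are uncertain. Low ones are uncertain too. Of the 85 ribosomal genes in the table, 75 reached 10 CPM in all 4 libraries, against 6339 of all 12430 genes. Rps15a, Rpl30 and Rps20 had means of 1.36, 0.916 and 0.757 CPM. Further genes of the first 25 included Fth1, the ferritin heavy chain, at 5569 ± 318 CPM, and Gsn, the actin-severing protein gelsolin, at 8499, 12174, 8334 and 7854 CPM. Gsn was highest in replicate 2. The ubiquitin gene Ubb, which rises in many stressed cells, was at 3487, 7158, 5178 and 6203 CPM and was also highest in replicate 2.

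**Figure D1:**
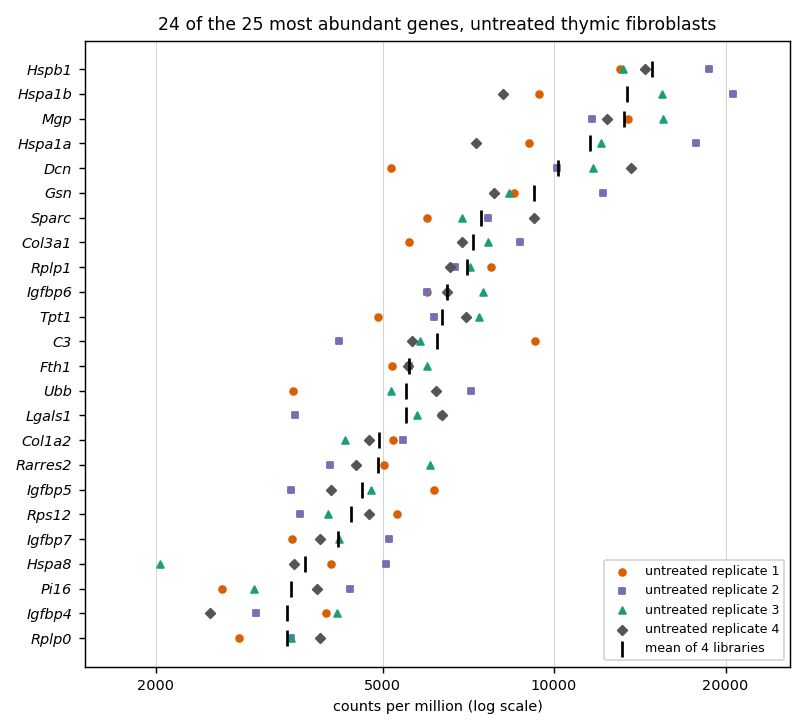
Genes among the 25 with the highest mean CPM in untreated thymic fibroblasts, with 1 point per library and a bar for the mean of 4, on a log axis. Hspb1, Hspa1b, Mgp and Hspa1a lead the ranking, the Hspa1b points run from 8144 to 20636 CPM, and replicate 1 is far left for Dcn at 5173 CPM.

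Matrix genes were led by Mgp, Dcn, Sparc, Col3a1 and Col1a2, all in the first 16 ranks. Matrix glycoproteins summed to 54078, 55308, 56832 and 58616 CPM in replicates 1 to 4, with an SD of 0.0349 times the mean. Mgp, matrix Gla protein, an inhibitor of calcification, was at 13466, 11667, 15527 and 12395 CPM and Sparc, a collagen-binding protein, at 5977, 7641, 6903 and 9237 CPM, and these gave 36.8% of the glycoprotein sum. No library stood apart for either gene. Igfbp7, listed with the glycoproteins, followed at 4169 ± 712 CPM and Aebp1, a collagen-binding protein, at 2489 ± 589 CPM (SD, n = 4 each).

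Genes of elastic fibres formed a further block. Mfap5, a microfibril protein, was at 1684, 2043, 1850.1 and 2578 CPM and Eln, elastin itself, at 1358, 1799, 1489.5 and 1562 CPM. Fbln1, fibulin-1, was at 1651, 1153, 1513 and 1258 CPM and Ltbp4, which stores latent TGF-beta on microfibrils, at 1621, 1269.9, 1176 and 1114 CPM. For these 4 genes the highest library was at most 1.53 times the lowest. Fn1, fibronectin, lay at 1252, 1199, 1328 and 2288 CPM and was highest in replicate 4. Ecm1, Dpt and Pcolce, the enhancer of procollagen C-proteinase, completed the 12 highest glycoproteins at 1633 ± 334, 1355 ± 171 and 1947 ± 166 CPM (SD, n = 4).

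Collagen genes summed to 16516, 20459, 16664 and 18618 CPM in replicates 1 to 4, a mean of 1.81% of all counts. Col3a1 at 5574, 8719, 7657 and 6892 CPM and Col1a2 at 5216, 5432, 4301 and 4730.5 CPM, chains of the fibrillar collagens III and I, made 67.2% of this sum. Col1a1, whose chain joins that of Col1a2 in collagen I, was far lower, at 193, 494, 502 and 624 CPM, with replicate 1 the lowest library. Of the 32 collagen genes in the table, 21 reached 10 CPM in all 4 libraries, against 6339 of all 12430 genes. Col6a2 and Col6a1, of the beaded-filament collagen VI, were at 1631 ± 307 and 867 ± 232 CPM, and Col6a3, the third chain, at 208 ± 64.1 CPM. The basement membrane chains Col4a1 and Col4a2 were at 293 ± 88.4 and 276 ± 49.7 CPM and Col15a1, of the zone next to it, at 501 ± 159 CPM (SD, n = 4 each). Col5a1, Col5a3 and Col14a1, which are found on fibrils of collagen I, lay at 453 ± 129, 267 ± 50.4 and 332 ± 49.6 CPM.

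Proteoglycans were the matrix class that differed most between libraries, with sums of 10864, 15596, 16632 and 19413 CPM in replicates 1 to 4. Dcn gave 65.0% of the mean sum. Its relative Bgn, biglycan, lay at 2949, 2690.3, 2151 and 2676 CPM and did not share the low value of replicate 1. Other small leucine-rich proteoglycans fell in 2 groups by library. Prelp at 619.6, 465, 473 and 461 CPM, Fmod (fibromodulin) at 543, 239, 388 and 251 CPM and Podn (podocan) at 328, 178, 267 and 204 CPM were highest in replicate 1. Lum (lumican) at 35.6, 407, 206 and 373 CPM, Ogn (osteoglycin) at 18.6, 227, 164 and 228 CPM and Aspn (asporin) at 15.4, 164, 116 and 126 CPM were lowest in replicate 1, which was at least 5 times below the next library. Hspg2, perlecan of basement membranes, lay at 301 ± 54.4 CPM, and the cell surface glypican Gpc3 and syndecans Sdc2 and Sdc4 at 222 ± 62.6, 133 ± 24.04 and 125 ± 38.9 CPM (SD, n = 4).

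Matrix enzymes and inhibitors summed to 32645, 32039, 28926 and 30716 CPM in replicates 1 to 4, and inhibitors led. Pi16, a peptidase inhibitor known as a marker of adventitial fibroblasts, was at 2611, 4376, 2975 and 3835 CPM. Serping1, the C1 inhibitor of complement, was at 3832, 3109, 3875 and 2732 CPM and Timp2, an inhibitor of metalloproteinases, at 3476, 2228, 2130.1 and 2619 CPM. For these 3 genes the highest library was at most 1.68 times the lowest. Serpinh1, the collagen chaperone HSP47, lay at 2661, 3012, 2231 and 1995 CPM, and Cst3, a cysteine protease inhibitor, at 2396 ± 193 CPM. Among proteases Htra3 at 1721 ± 241 CPM, Mmp23 at 779 ± 144 CPM and Mmp2 at 749.9 ± 66.6 CPM (SD, n = 4) were highest. Has1, a hyaluronan synthase, was at 1147, 827, 326 and 618 CPM, with replicate 3 the lowest. None of the 54 enzyme and inhibitor genes with a mean of at least 50 counts had a coefficient of variation of 0.5 or more.

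Secreted factors took 6.32% of all counts, with sums of 73379, 55908, 63121 and 60387 CPM in replicates 1 to 4, and the 6 highest made 49.2% of that. Binding proteins of insulin-like growth factors, Igfbp7 included, summed to 20544, 18065, 21300.5 and 17209 CPM over 6 genes. Igfbp6, which prefers IGF2, lay at 5972, 5975, 7495 and 6479.7 CPM, Igfbp5 at 6156, 3448, 4771 and 4058 CPM and Igfbp4 at 3972, 2992, 4152 and 2483 CPM. No library was apart from the rest for Igfbp6. The ligands were far lower, with Igf1 at 35.1, 97.2, 111 and 66.7 CPM and Igf2 at 126, 189.6, 98.7 and 73.8 CPM. All 50-base words at the end of Igf2 are shared with the overlapping gene model Gm49394, so its level is uncertain.

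Complement genes were high, with 19 genes summing to 19809, 12496, 16432 and 13899 CPM in replicates 1 to 4. C3, the central component, was at 9247, 4195, 5818 and 5629 CPM, with replicate 1 the highest. C1s1 and C1ra, the proteases of the classical pathway, were at 1118 ± 229 and 788 ± 124 CPM, and C2 at 588 ± 156 CPM (SD, n = 4). The inhibitor Clu, clusterin, lay at 2028 ± 202 CPM. Cfb at 768 ± 261 CPM shares 93.8% of its end with the read-through model Gm20547, and C4b at 498 ± 123 CPM shares 38.1% with C4a, so both levels may include reads of the other gene. Other abundant secreted proteins were the chemerin precursor Rarres2 at 4904 ± 870.1 CPM, galectin-1 (Lgals1) at 5486 ± 1345 CPM, the BMP antagonist Nbl1 at 2619 ± 601 CPM and Apoe, a lipid carrier, at 1935 ± 148 CPM (SD, n = 4 each).

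Chemokines were measurable but unequal across libraries, and the 26 CC and CXC genes summed to 8196, 5491, 1591 and 5672 CPM in replicates 1 to 4. Cxcl1, a neutrophil attractant, was at 3759, 2866, 505 and 2170.3 CPM. Ccl2, a monocyte attractant, was at 2282, 1095, 362 and 1396 CPM and its neighbour Ccl7 at 657, 321, 50.2 and 368 CPM. Replicate 3 was the lowest library for all of the 3, and for Cxcl1 it was 7.44 times below replicate 1. The interferon-inducible Cxcl10 was at 623, 349, 183 and 534 CPM, and the eosinophil attractant Ccl11 at 154, 264, 127 and 331 CPM. Cxcl13, a B cell attractant, was at 8.77, 21.9, 16.9 and 218 CPM, which is high in replicate 4 alone. Cxcl12, the ligand of CXCR4 on thymocytes and progenitors, was at 37.8, 67.6, 37.00 and 100.5 CPM, and Ccl25, which draws progenitors into the thymus, was at 9.87, 4.74, 7.81 and 7.09 CPM. Ccl19 was at 2.74, 7.703, 1.64 and 30.02 CPM, with 88.5% of its end shared with copies.

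Factors with a known part in the thymic niche ranged from rank 325 to rank 12074. Of 35 such genes in the table, 17 reached 10 CPM in all 4 libraries, against 6339 of all 12430 genes. Rspo1, an amplifier of WNT signalling, was at 509, 475, 708 and 249 CPM. Aldh1a2, an enzyme of retinoic acid synthesis, was at 385, 308, 521 and 277 CPM. Both were highest in replicate 3 and lowest in replicate 4. Of the 5 mesothelial markers, 4 were highest in replicate 3 and 3 were lowest in replicate 4. Among all 4992 genes, 1597 were highest in replicate 3 and 1000 lowest in replicate 4. Msln was instead lowest in replicate 2, and Wt1 was highest in replicate 1. Rspo1 and Aldh1a2 are also known from mesothelial cells. The part of such cells in these 2 levels was not tested. The heparin-binding factor Mdk followed at 321, 330.1, 502 and 358 CPM and the alarmin Il33 at 265, 274, 292 and 230.2 CPM, where all 4 libraries lay close together.

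Ligands known to act on thymic epithelium were lower. Bmp4 lay at 59.2, 103, 83.05 and 70.5 CPM, Fgf7 at 9.32, 26.7, 20.6 and 21.3 CPM and Fgf10 at 1.097, 14.8, 2.88 and 7.09 CPM. Fgf10 was above 10 CPM in replicate 2 alone. The highest FGF genes were Fgf1 at 576, 280.3, 421 and 266 CPM and Fgf18 at 115, 113, 92.5 and 69.2 CPM. Among WNT ligands Wnt2b at 75.6 ± 23.6 CPM, Wnt11 at 65.1 ± 23.5 CPM and Wnt9a at 58.4 ± 13.7 CPM (SD, n = 4) led, and Wnt5a lay at 19.5 ± 7.28 CPM. Cytokines for lymphoid progenitors were present at modest levels, with Flt3l at 50.99, 77.6, 68.7 and 97.99 CPM, Kitl at 4.93, 13.6, 15.2 and 18.3 CPM and Il15 at 6.58, 29.6, 17.7 and 18.3 CPM. Kitl and Il15 were lowest in replicate 1. Tslp, Hgf, the NOTCH ligand genes Dll4 and Jag1, and the activin subunit gene Inhba were each below 6 CPM in every library.

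**Figure D2:**
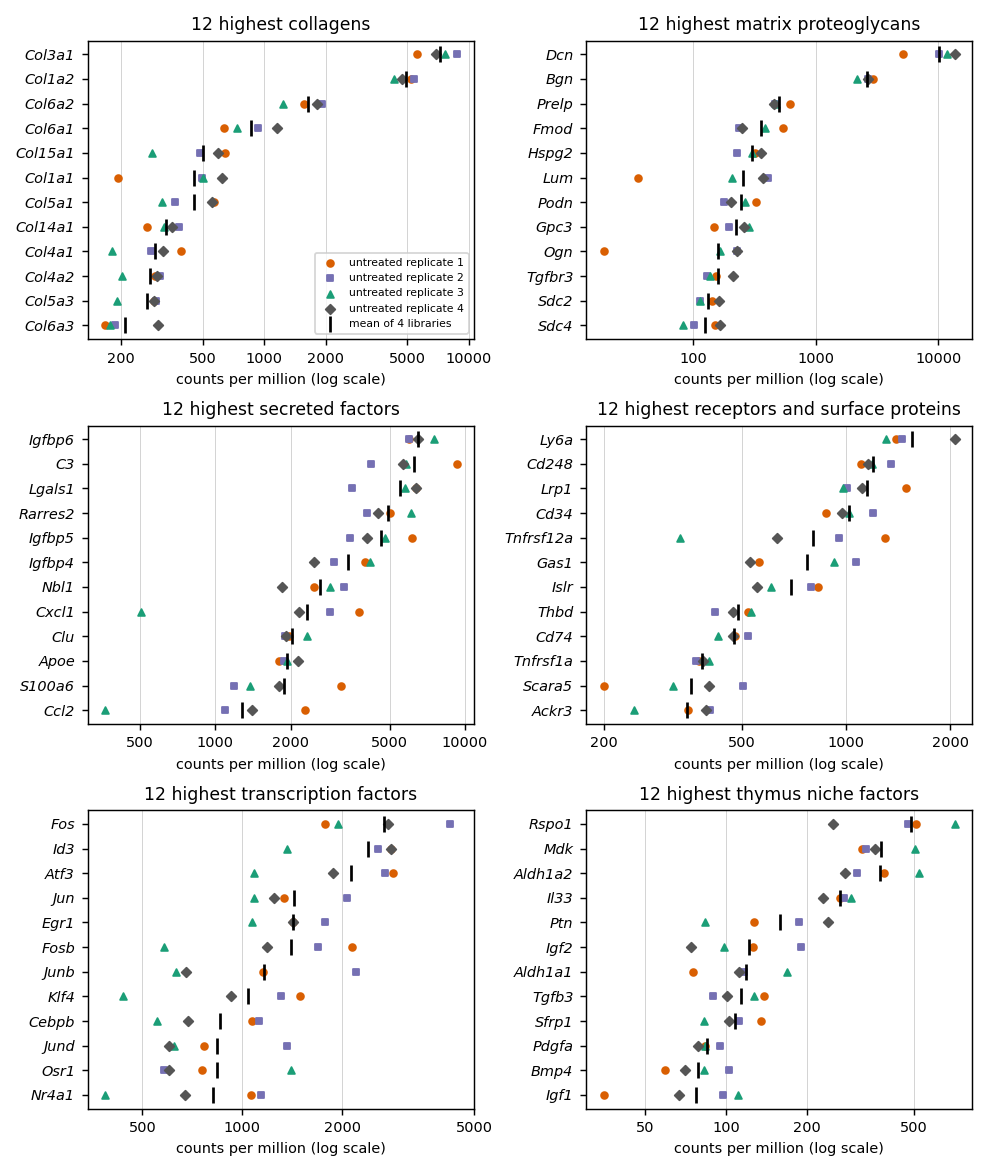
The 12 highest genes of 6 lists in untreated thymic fibroblasts, with 1 point per library and a bar for the mean of 4, on log axes in CPM. Replicate 1 lies far left for Lum and Ogn at 35.6 and 18.6 CPM, and replicate 3 lies far left for Cxcl1 at 505 CPM and Ccl2 at 362 CPM.

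Receptors and other surface proteins took 2.20% of all counts. Of 347 in the table, 147 reached 10 CPM in all 4 libraries, against 6339 of all 12430 genes. Ly6a (Sca-1), a surface antigen of many progenitors, led at 1399.9, 1453, 1308 and 2065 CPM. Cd248, endosialin, which marks fibroblasts and pericytes, was at 1103, 1353, 1189 and 1159 CPM, and Lrp1, an endocytic receptor for protease complexes, at 1496, 1009, 983 and 1111 CPM. Tnfrsf12a, the receptor of TWEAK, was at 1298, 953, 331 and 633 CPM and varied with replicate 3 low. Tnfrsf1a, the main receptor of TNF, was among the least variable genes, at 377, 369.8, 403 and 388 CPM. Ltbr, the lymphotoxin-beta receptor needed for medullary organization in the thymus, lay at 151, 208, 204 and 134 CPM. Gas1, a hedgehog co-receptor, was at 560.4, 1068, 927 and 527 CPM, Scara5, a ferritin receptor, at 199.6, 505, 316 and 403 CPM and Ackr3, a scavenger of CXCL12, at 349.8, 404, 244 and 396 CPM. Cd74, the chaperone of MHC class II, was at 475 ± 39.3 CPM (SD, n = 4).

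The growth factor receptors given here ranked below these surface proteins, except Tgfbr2, which ranked 904 against 923 for Ltbr. Pdgfrb lay at 108, 64.00, 59.2 and 97.6 CPM, below Pdgfra in 3 of 4 libraries. Fgfr1 was the highest FGF receptor gene at 107, 104, 70.3 and 98.8 CPM, and Fgfr2 lay at 6.03, 11.3, 9.04 and 17.5 CPM. The type II TGF-beta receptor Tgfbr2 was at 177 ± 26.5 CPM, Tgfbr1 at 44.6 ± 19.96 CPM and the BMP receptor Bmpr1a at 47.01 ± 7.38 CPM (SD, n = 4). Among interleukin receptors Il11ra1 led at 321 ± 73.2 CPM, with 47.9% of its end shared with copies, and Il17re followed at 84.5 ± 24.8 CPM. Il4ra and Il13ra1, the chains that bind IL-4 and IL-13, were at 9.87, 5.93, 2.88 and 9.17 and 0.548, 10.1, 6.58 and 16.7 CPM. Nr3c1, the glucocorticoid receptor, lay at 81.7, 116, 111 and 106 CPM. Integrins were led by the shared chain Itgb1 at 216 ± 44.4 CPM, while Itgav was at 3.84, 36.1, 33.7 and 60.9 CPM and nearly absent in replicate 1.

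Transcription factors took 3.67% of all counts, and immediate early genes dominated the list. The immediate early genes, induced within minutes to hours of a stimulus without new protein synthesis, supplied 9 of the 12 highest factors and 39.5% of the summed level of all factors. Fos was the highest at 1773, 4220.3, 1941 and 2756 CPM, and Jun, its AP-1 partner, was at 1337, 2072, 1086 and 1249.6 CPM. Atf3, a stress-induced factor, was at 2849.7, 2699, 1086 and 1878 CPM and Egr1 at 1421, 1781, 1072 and 1422 CPM. Fosb and Klf4 were at 2141, 1689, 583 and 1184 and 1494, 1307, 438 and 927 CPM. Replicate 3 was the lowest for all of these but Fos, for which replicate 1 was.

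The 30 immediate early genes measured summed to 23314, 29490.1, 12303 and 19953 CPM in replicates 1 to 4. Of the 26 with a mean of at least 50 counts, 21 (80.8%) were lowest in replicate 3 and none highest there, against 18.9% lowest and 32.0% highest there among all 4992 genes. The same genes were highest in replicate 2 in 15 cases (57.7%), against 14.9% of all genes. The heat shock sum was also highest in replicate 2, while among the 14 heat shock genes 8 were lowest in replicate 3.

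Outside the immediate early list, Id3, an inhibitor of basic helix-loop-helix factors, was the highest factor at 2812, 2568, 1368 and 2806 CPM. Cebpb, a factor of adipogenesis and acute-phase genes, was at 1069.8, 1121, 553 and 688 CPM and Osr1, a factor of lateral mesoderm and connective tissue, at 756, 581, 1407 and 602 CPM. Osr1 was highest in replicate 3, and so were 4 of the 5 mesothelial markers and 32.0% of all 4992 genes. Atf4 and Atf5, of the stress response to amino acid shortage, were at 591 ± 191 and 528 ± 89.3 CPM, the DNA- and RNA-binding Ybx1 at 488 ± 62.6 CPM, Irf1 of the interferon response at 336 ± 131 CPM and Xbp1 of the unfolded protein response at 324 ± 74.7 CPM (SD, n = 4). All 4 nuclear factor I genes reached 10 CPM in every library, as did 6339 of all 12430 genes. Nfix at 316 ± 70.8 CPM and Nfic at 210.2 ± 45.7 CPM were the highest of the 4.

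HOX genes, which record position along the body axis, were led by anterior members. Hoxa5 was at 137, 154, 265 and 163 CPM, with replicate 3 the highest. Hoxa4 lay at 20.3, 24.3, 45.6 and 22.1 CPM and Hoxa3, needed for thymus formation in the mouse, at 8.77, 38.5, 31.7 and 20.01 CPM. Hoxb2 and Hoxc4 were the highest of their clusters at 46.1, 81.2, 78.9 and 66.3 and 29.1, 31.4, 53.4 and 36.3 CPM. The cluster sums averaged 273 ± 88.6 CPM for HOX A, 97.7 ± 20.2 for HOX B, 45.1 ± 12.5 for HOX C and 8.26 ± 4.91 for HOX D (SD, n = 4). Tbx2 was the most even factor of its family at 40.6, 42.1, 39.9 and 40.4 CPM.

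Lists of genes of adventitial (capsular) and of parenchymal (medullary) fibroblasts were both present. Of 24 adventitial genes, 22 reached 10 CPM in all 4 libraries, against 6339 of all 12430 genes. The 24 summed to 8212, 10360.0, 7876 and 10879.9 CPM in replicates 1 to 4. Pi16, Fn1 and Cd248, given above, were the highest of them. Of 22 parenchymal genes, 18 reached 10 CPM, and they summed to 20053, 17876, 21521 and 20169 CPM, mostly from Mgp, Apoe and Fbln1, which many fibroblasts express. Bulk counts do not say whether both lists come from the same cells.

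The spread among the 4 libraries was moderate for most genes. Among the 4992 genes with a mean of at least 50 counts, the median coefficient of variation (CV, the SD divided by the mean) was 0.211, against 0.0909 from counting noise alone. A CV of 0.5 or more was found for 215 genes, 4.31% of those. Leaving out replicate 1 gave 113 such genes, and leaving out replicate 2 gave 356. The common biological coefficient of variation, estimated with edgeR over 8071 genes, was 0.253, and 0.206 without replicate 1. The share with a CV of 0.5 or more was 13.9% among 108 secreted factors, 10.8% among 194 transcription factors and 10.2% among 128 receptors and surface proteins. It was 2.70% among 74 ribosomal proteins and 0 among 71 genes of oxidative phosphorylation. The lists differ in level, and genes of lower level carry more counting noise.

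**Figure D3:**
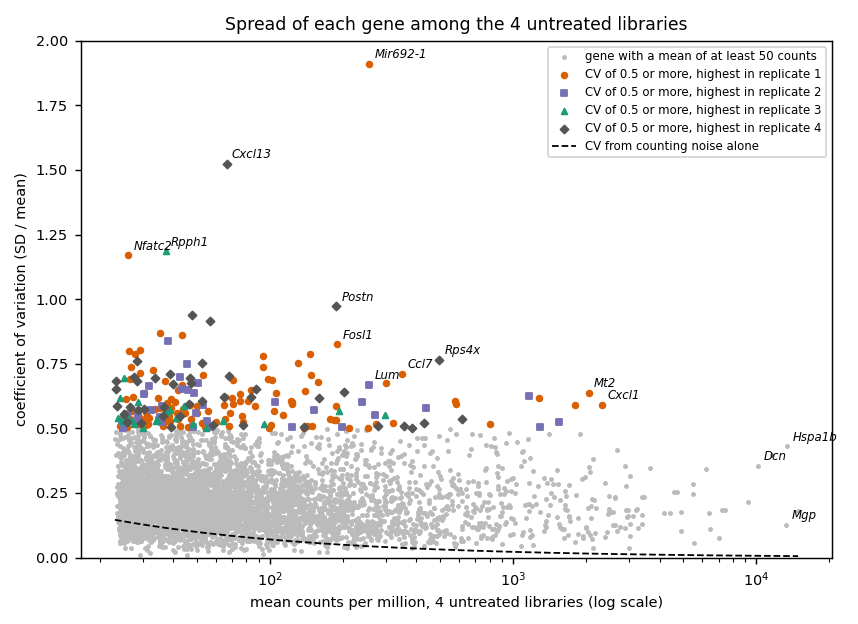
Coefficient of variation against mean CPM for the 4992 genes with a mean of at least 50 counts in untreated thymic fibroblasts, with the expectation from counting noise as a dashed line. Colours give the highest library of genes with a CV of 0.5 or more, and of these 215 genes 112 are highest in replicate 1, 37 in replicate 2, 23 in replicate 3 and 43 in replicate 4.

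Replicate 1 accounted for the largest group of deviating genes. There, 134 genes (2.68% of the 4992) lay at least 2 times below each of the other libraries. Another 65 (1.3%) lay at least 2 times above. Replicates 2, 3 and 4 had 6 to 65 below and 4 to 10 above. The 134 included 3 of 17 proteoglycans (17.6%), 6 of 128 receptors or surface proteins (4.69%) and 1 of 194 transcription factors (0.515%). The 65 included 8 of 194 transcription factors (4.12%). In none of the gene lists, cell markers aside, were 112 of the 134 and 53 of the 65. The examples that follow were picked after their values were seen. Low in replicate 1 were Lum, Ogn and Aspn, given above, together with Lpl, lipoprotein lipase, at 46.6, 370.4, 215 and 326 CPM. Itgav and Nrp1, a co-receptor of semaphorins and VEGF, were also low there, Nrp1 at 7.13, 50.96, 27.1 and 70.5 CPM. So was Pdpn, podoplanin, at 24.1, 78.8, 94.1 and 95.5 CPM. High in replicate 1 were Nfatc2 at 71.8, 14.2, 6.17 and 12.5 CPM and Nfatc1 at 95.96, 40.9, 9.87 and 26.7 CPM, factors activated by calcineurin. The demethylase gene Kdm6b was at 309.8, 134, 42.8 and 98.4 CPM, the pseudokinase gene Trib1 at 266, 116, 31.2 and 108 CPM and Hk2, a hexokinase, at 57.03, 20.1, 8.22 and 20.4 CPM. The most variable entry of all, Mir692-1, was at 992, 4.15, 11.1 and 18.8 CPM. Its end shares sequence with ferritin light chain copies, so the level is uncertain.

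The genes low in replicate 1 were poor in G and C near their 3′ ends. The median GC content of the last 500 transcript bases was 35.8% for 132 of those 134 genes, against 47.2% for all 4940 genes with a matched transcript. With genes in 5 groups by GC content, the deviation of each library from the mean log2 CPM of the 4 libraries (pseudocount 0.5) was taken. The median for replicate 1 was -0.17 in the group of lowest GC, 0.14 in the next to highest and 0.02 in the highest. The deviation of replicate 1 also followed transcript length over all genes, from -0.15 in the shortest group to 0.25 in the longest, while replicate 3 was at 0.13 in the shortest and -0.09 in the longest. Across genes, Spearman's rho of the deviation with GC content was 0.18, -0.19, -0.009 and -0.098 in replicates 1 to 4. With length it was 0.32 in replicate 1 and -0.29 in replicate 3. The genes low in replicate 1 ran against its trend with length, with a median transcript length of 3187.5 bases, against 2379.5 for all genes. The genes high there had a median length of 3913 bases and a median GC content of 48.0%. The part of GC content in the low values of replicate 1, and of length in the high ones, was not tested.

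**Figure D4:**
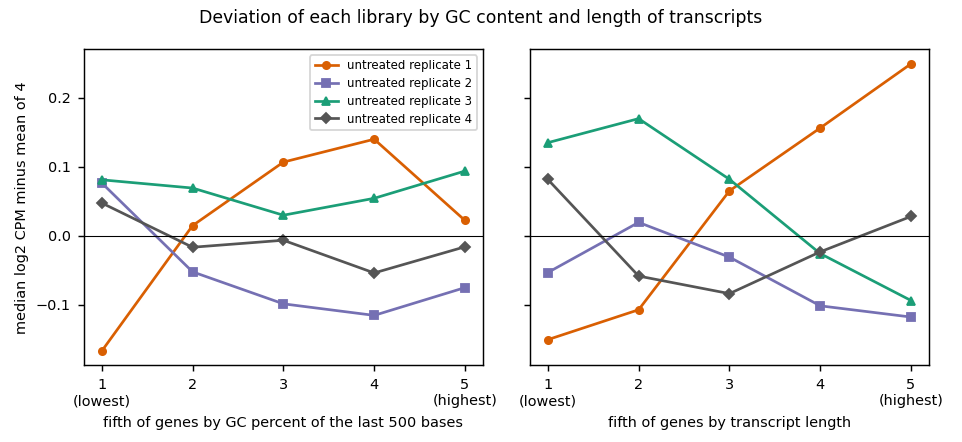
Median deviation of each library from the mean log2 CPM of the 4 untreated libraries, over 5 groups of 4940 genes by GC content of the last 500 transcript bases (left) and by transcript length (right). Replicate 1 runs from -0.15 in the shortest to 0.25 in the longest group, and replicate 3 falls to -0.09 in the longest.

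In replicate 3, 65 genes, 1.3% of the 4992, lay at least 2 times below every other library. These included 9 of 26 immediate early genes (34.6%), 11 of 194 transcription factors (5.67%), 7 of 108 secreted factors (6.48%) and 7 of 128 receptors or surface proteins (5.47%), with genes counted in each list that holds them. Of the 65, 29 were in none of the gene lists, cell markers aside. The examples that follow were picked after their values were seen. Fosl1, an AP-1 subunit, was at 364, 270.2, 24.7 and 96.3 CPM and Myc at 257, 263, 71.9 and 165 CPM. Socs3, a feedback inhibitor of cytokine signalling, was at 595, 565, 155 and 416 CPM. Metallothioneins, which bind zinc and copper, were low as well, with Mt2 at 3666, 2145, 484 and 1881 CPM and Mt1 at 3123, 1844, 538 and 1670.0 CPM. Thbs1, which encodes the matrix glycoprotein thrombospondin-1, was at 86.6, 103, 25.1 and 83.8 CPM and Icam1, an adhesion receptor for leukocytes, at 428, 329, 149 and 346 CPM. In replicate 3, 4 genes (0.0801% of the 4992) were at least 2 times above all other libraries. Among them was Rpph1, the RNA of ribonuclease P, at 13.2, 24.9, 103 and 8.34 CPM. Rpph1 shares most of its end with Ccnb1ip1.

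Replicates 2 and 4 had few genes of their own. In replicate 4, 10 genes (0.2% of the 4992) were at least 2 times above all others. Cxcl13, given above, was 24.8 times above the lowest library. Postn, periostin, a matrix protein of remodelling tissue, was at 61.4, 182, 58.8 and 447 CPM and Fabp4, a fatty acid carrier of adipocytes and capillary endothelium, at 48.3, 21.9, 24.7 and 133 CPM. Adipoq, which defines adipocytes, was at 0.417 CPM in replicate 4. Pecam1 at 4.17, Cdh5 at 1.25 and Cldn5 at 0.834 CPM were highest in replicate 4, at low counts, while Emcn was highest in replicate 2. The endothelial sum, mostly Kdr, was highest in replicate 1 at 137 CPM and lay at 97.2 CPM in replicate 4. The part of adipocytes or endothelium in the Fabp4 level was not tested. Edn1, endothelin-1, was at 17.5, 21.3, 17.7 and 49.6 CPM. Rps4x was at 234, 298, 395 and 1058 CPM, with 74.9% of its end shared with copies. In replicate 2, 5 genes (0.1% of the 4992) were at least 2 times above all others. Among them were Bag3, given above, and Slc5a3, the myo-inositol transporter induced by osmotic stress, at 12.1, 84.7, 26.7 and 29.2 CPM. Hpgd, which degrades prostaglandins, was at 21.9, 94.8, 42.3 and 23.4 CPM and Cilp2 at 19.2, 58.7, 25.5 and 17.9 CPM.

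**Figure D5:**
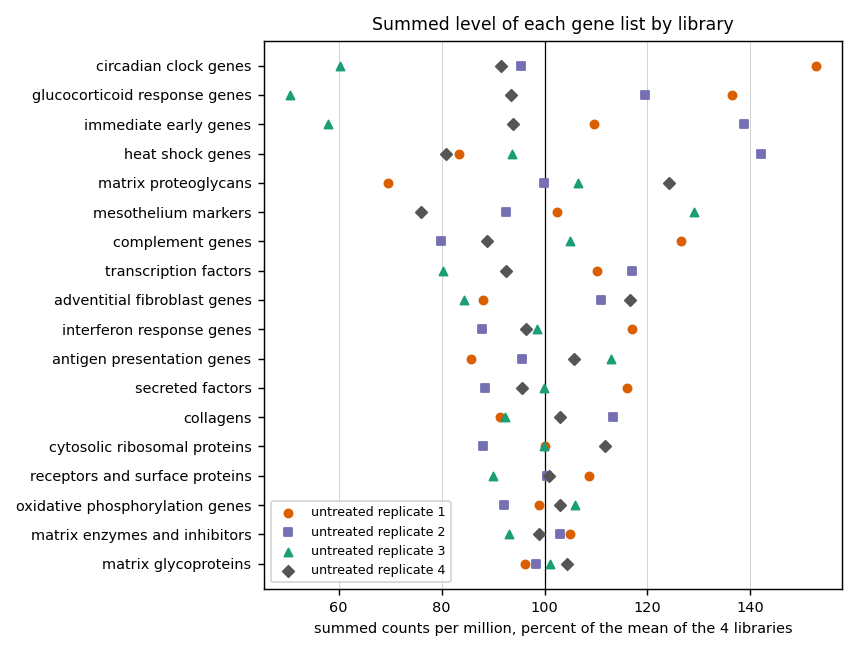
Summed CPM of 18 gene lists in each untreated library, as a percentage of the mean of the 4 libraries. Immediate early genes are lowest in replicate 3, heat shock genes highest in replicate 2 and proteoglycans lowest in replicate 1, while matrix glycoproteins stay close to 100 in all 4 libraries.

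At the other end of the range, a CV of 0.2 or less was found for 2318 genes, 46.4% of the 4992. The 12 with the smallest CV among genes with a mean of at least 200 counts included Sin3b, a scaffold of histone deacetylase complexes, at 174, 171, 166 and 174 CPM. Medag, a gene linked to adipocyte differentiation, was at 164, 156, 158 and 157 CPM. Rpl11, a ribosomal protein, was at 2041, 2089, 2218 and 2139 CPM, and Sdhb, a subunit of succinate dehydrogenase, at 208, 200.3, 208 and 191 CPM. The CV of the 12 lay between 0.0220 and 0.0418, values that their choice by small CV sets. Others of this set were Dtnbp1, Tmem259, Aimp1, Pdlim4, Tnfrsf1a, Mrpl54 and Glmp.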

How the data were processed

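RNA of sorted thymic fibroblasts was sequenced with MARS-seq, per the labels' protocols. The submitters' processing notes name the build mm10 and the tools STAR 2.5.2b, cutadapt, bcl2fastq, HTSeq and DESeq2. No source used here gives the annotation, the strand setting or any collapsing of molecular identifiers, and overlapping genes may share reads. Raw counts for each gene symbol, deposited by the authors, were the only values used. The deposited table also holds a normalized signal per library, and the authors' log2 fold changes and p-values of treated comparisons, which were not used. All columns matched a sample. Each gene in the table has at least 6 counts in at least 1 of 11 libraries, treated ones included.

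The 4 untreated columns were divided by their totals to give CPM, with mean and SD (n = 4). No groups were compared, since there is 1 group, and Dixon's limit was applied to single libraries. The CV was compared with Poisson counting noise, for genes with a mean of at least 50 counts. The common biological coefficient of variation was estimated with edgeR 4.0.16 (TMM, minimum count 10, R 4.3.3), and the estimator was also run on simulated counts. The name is that of edgeR, and the spread it describes may be technical. Alternatives were TMM and DESeq2 1.42.0 size factors, other filters, and each replicate left out. In all 6 pairs of libraries the chi-square per degree of freedom was 10.3 or higher, above Poisson noise, so none was counted as 1 library deposited again. This does not show that they came from separate animals. Transcript ends and lengths came from GENCODE M21 (12247 of 12430 symbols matched), and promoters from RefSeq.

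The genes and the 35 gene lists were chosen with earlier results of these data known. Named are the 25 most abundant genes, the 12 highest of each class list, the 25 with the largest CV beyond counting noise, the 12 with the smallest CV at a mean of at least 200 counts, the sort markers, all niche factors and up to 4 of each other list. A few genes that this rule names are not reported here. Further genes, of families or of those at least 2 times apart in 1 library, were picked after their values were seen. Zfp36, an RNA-binding protein, and its relatives were taken out of the transcription factors after the files were seen.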

Additional observations from a re-analysis of the deposited data

Results flagged for a closer look

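For 26 of 269 values, 9.67%, 1 library lay beyond Dixon's limit at 95%. That limit bounds the share of the range of the 4 libraries taken by the gap between the highest or lowest library and its neighbour. A library can thus pass it at a small difference in level where the others lie close together, as for Prelp and the contractile sum. Chance passes it for about 1 in 20 groups of values not picked by their spread. The values here are named genes and list sums, and some named genes were picked for a large or small CV in these libraries. Some sums also rest mostly on 1 gene that is flagged itself. The 9.67% therefore cannot be set against 1 in 20. Replicate 1 was the distant library in 9 cases, replicate 2 in 9, replicate 3 in 4 and replicate 4 in 4. Explanations were not tested.

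In replicate 1, the matrix genes Prelp at 620 CPM and P4hb, a subunit of prolyl hydroxylase, at 1226 CPM were flagged as highest. Nfatc2 at 71.8 CPM, Cdca4 at 69.1 CPM and Mir692-1 at 992 CPM were flagged as highest there too. The epithelial marker Epcam was at 11 CPM there, and the endothelial marker Kdr at 129 CPM took the endothelial sum to 137 CPM. The B cell marker Cd79b was low there, at 1.64 CPM, which is 3 counts.

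In replicate 2, Gsn at 12174 CPM was flagged as highest. So was the contractile sum at 8154 CPM, against 7366, 7453 and 7461 CPM in replicates 1, 3 and 4. Of 19 contractile genes with a mean of at least 50 counts, 2 (10.5%) were highest in replicate 2, against 14.9% of all 4992. Ppib, a prolyl isomerase of collagen folding, was low at 588 CPM. Genes that mark other cells were highest there at low levels. The macrophage gene C1qb was at 26.1 CPM and the thymocyte gene Cd8b1 at 16.0 CPM. The adipocyte sum of 7.70 CPM is Adipoq alone, also 7.70 CPM, and the skeletal muscle sum of 4.74 CPM is Acta1 alone, also 4.74 CPM.

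In replicate 3, Clu was high at 2327 CPM. Col5a3 at 191 CPM, Id3 at 1368 CPM and the Schwann cell sum at 2.47 CPM were low. In replicate 4, Fn1 at 2288 CPM, Col6a3 at 304 CPM and Cxcl13 at 218 CPM were high, and Sox10 at 2.5 CPM had counts in this library alone.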

How the results depend on the processing

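Of 82 group values recomputed under another setting, 10 moved. The number of genes with a CV of 0.5 or more, 215, was 492 with a filter at a mean of 20 counts, 105 at 100 counts and 2814 with no filter, and it ranged from 113 to 356 with 1 replicate left out, lowest without replicate 1 and highest without replicate 2. The common biological coefficient of variation, 0.253, ranged from 0.206 without replicate 1 to 0.276 without replicate 2. Of the 25 most variable genes, 11 stayed in the set when ranked by highest over lowest library, 13 by tagwise dispersion, 10 with a filter at 20 counts and 13 at 100 counts. Fewer or more genes enter under the other filters by construction, and the cause of the other shifts was not tested.

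The summed levels of the class lists and the share of the 100 highest genes moved by less than 1 SD under TMM and DESeq2 size factors, whose median shift was -0.0003 and 0.0083 on the log2 scale. A mean of 3 of 4 libraries lies within 1 SD of the mean of 4 by construction, so leaving 1 out says little about single levels. With 1 library at 1687549 counts, genes below about 10 CPM rest on few counts, and neither their rank nor their spread is firm. No paired analysis was possible because only 1 group was used.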

Other observations

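Several gene groups outside the matrix and signalling classes were measured in the same 4 libraries. Genes of antigen presentation by MHC class I were abundant. H2-D1 lay at 2816, 3554, 3813 and 2591 CPM, H2-K1 at 2514, 2805, 3717 and 2656 CPM and B2m, the shared light chain, at 2124, 2235, 2816 and 4352 CPM in replicates 1 to 4, and the 17 genes of the list summed to 10409, 11603, 13691 and 12824 CPM. B2m was highest in replicate 4. Interferon response genes summed to 7128, 5353, 5996 and 5873 CPM, and of the 41 genes in that list Ifi27l2a was at 1426 ± 355 CPM, Ifi27 at 822 ± 91.7 CPM and Bst2, tetherin, at 735 ± 62.1 CPM (SD, n = 4). The list does not hold every interferon-inducible gene. The median CV was 0.143 for the antigen presentation list and 0.204 for the interferon list, the second close to the 0.211 of all 4992 genes. Genes of oxidative phosphorylation summed to 18479, 17223, 19783 and 19265 CPM, with a median CV of 0.135.

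The 26 cell cycle genes summed to 1818, 1572, 1981 and 1817 CPM. Of these, 15 reached 10 CPM in all 4 libraries, against 6339 of all 12430 genes. The tubulin genes Tuba1b and Tubb5, which cells outside the cycle also express, gave 67.9% of the sum. Mki67, a marker of cycling cells, was at 13.2, 5.93, 8.22 and 17.1 CPM and Top2a, which unwinds replicated DNA, at 19.7, 13.04, 13.98 and 20.8 CPM. The glucocorticoid response list, read here without any drug, summed to 10192, 8928, 3783 and 6989 CPM. Most of that came from Mt2, Mt1, Dusp1 and Cebpb, which other stimuli induce as well. Fkbp5, a chaperone of steroid receptors, was at 106, 59.3, 41.1 and 45.4 CPM, highest in replicate 1, and Tsc22d3 (GILZ) at 24.7, 36.1, 51.4 and 32.5 CPM, highest in replicate 3. The 2 genes thus did not share an order of libraries. The 16 clock genes summed to 1298, 811, 511 and 778 CPM. Of the 7 with a mean of at least 50 counts, 6 (85.7%) were highest in replicate 1 and 6 lowest in replicate 3, against 35.4% and 18.9% of all genes. Nr1d1, a repressor of the clock, was at 672, 364, 237 and 341 CPM, Dbp, a clock output factor, at 174, 126, 40.3 and 74.2 CPM and Per1 at 53.2, 27.3, 30.01 and 37.5 CPM. Nr1d2, the close relative of Nr1d1, was at 2.19, 23.1, 12.3 and 15.8 CPM and was lowest in replicate 1. The hour of sampling is not given in the sources used here.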
